A study of Mus musculus with 6 samples.

Results

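Hepatocyte-derived progenitor-like cells (Hep_LPCs) were compared with progenitor-like cells grown from the non-parenchymal cells of the liver (NPC_LPCs), over every gene of their RNA sequencing tables. The members are 2 Hep_LPCs and 2 NPC_LPCs libraries, chosen by their titles, which are 4 of the 6 libraries of the series. Liver progenitor-like cells (LPCs) are proliferating epithelial cells obtained here by culture of adult mouse liver cells in Transition and Expansion Medium (TEM). The growth protocol gives the difference between these groups as the question of the sequencing.

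Both groups came from C57BL/6 mice labelled as 6 to 8 weeks old, and both were kept in TEM. Hep_LPCs came from mice labelled ROSA26tdTomato that had received AAV8-TBG-Cre, a virus in which the TBG promoter drives Cre in hepatocytes, so that hepatocytes carry the red reporter. NPC_LPCs came from AlbCreERT/R26GFP mice, in which the albumin promoter drives an inducible Cre and recombined cells carry GFP. The labels name no inducing agent. Mouse line, virus and cell source differ together between the groups and cannot be told apart. Nothing in the labels tells whether the replicates of a group are different animals or different dishes. The p-values therefore rest on the spread of these libraries alone, and how far that spread is technical is not known. The Hep_LPCs libraries differ in Y-linked reads, given below, and the source of that difference was not tested. Non-parenchymal cells of the liver are the cells other than hepatocytes, such as bile duct, endothelial, stellate and Kupffer cells.

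Hepatocyte identity rests on a network of transcription factors, among them HNF4A and C/EBPA, which drive the genes of plasma proteins and of metabolism. Bile duct cells share part of that network and carry keratins and matrix receptors in its place. Interferons bind surface receptors that activate STAT factors, among them STAT2. With IRF9, STAT2 takes part in a complex that binds a short element in the promoters of antiviral genes and of the antigen presentation machinery.

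Total counts were 17575998 to 18123118 reads in Hep_LPCs and 17919947 to 20625957 reads in NPC_LPCs, with 14070 to 14333 genes detected in each library. Levels below are CPM, read counts divided by the library's scaled size and expressed per 1e6 reads, in which 3 reads correspond to 0.149 to 0.169 CPM. Across genes, Pearson's r of log2 CPM was 0.947 between the Hep_LPCs libraries, 0.934 between the NPC_LPCs libraries and 0.854 to 0.873 between groups, as a description, since genes are not independent replicates. Hep_LPCs replicate 2 stands apart from the other libraries on the Y chromosome, where the helicase gene Ddx3y lay at 57.3, 0.0564, 84.8 and 70.9 CPM in the order Hep_LPCs 1, Hep_LPCs 2, NPC_LPCs 1 and NPC_LPCs 2. That order is kept wherever 4 values are listed.

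Of 12332 genes tested, 98 (0.795%) were called at an adjusted p under 0.05 by edgeR's quasi-likelihood test, 43 of them higher in Hep_LPCs (0.349%) and 55 lower (0.446%). Without the X- and Y-linked genes 114 were called. A nominal p, taken before adjustment, was under 0.05 for 10.5% of genes with higher and 11.6% with lower levels in Hep_LPCs, and member counts at that threshold are given beside the calls. The libraries of the groups were at least 2-fold apart in 9.79% of genes. In 4.32% both Hep_LPCs libraries were at least 2-fold above both NPC_LPCs libraries, and in 5.47% at least 2-fold below them, which is called separation below. The median log2 fold change over all genes tested was -0.00, and fold changes are Hep_LPCs over NPC_LPCs. Adjusted p-values below are from that test with Benjamini-Hochberg adjustment over all genes tested. Each ± is a standard error (SE) from the fit with n = 2 libraries per group, and borrows spread across genes. The number called depends on single libraries: it was 0 without Hep_LPCs replicate 1, 0 without Hep_LPCs replicate 2, 361 without NPC_LPCs replicate 1 and 108 without NPC_LPCs replicate 2. At a nominal p under 0.05, 2063 and 2265 genes passed without Hep_LPCs replicate 1 and 2. DESeq2 called 1517 genes (12.3%) and limma-voom 5 (0.0405%). All 98 called genes kept their direction in each of the 18 alternatives in which they were tested. Their libraries did not overlap between groups, by 2.95-fold in the closest (Col27a1). The kept direction was thus close to fixed in advance and adds no support to the calls.

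By the size of the called differences, Cdhr5 and Ddc led the increases and Ulbp1, Piezo2 and Angptl2 the decreases. Cdhr5, a protocadherin that links microvilli (chromosome and position in mm10: chromosome 7, 141269083 to 141276786), lay at 28.3 and 13.6 CPM in Hep_LPCs against 0 and 0 in NPC_LPCs (adjusted p = 0.0325). Its Hep_LPCs mean was at least 127-fold higher when 3 reads per library are taken as the floor. Every such bound below is for the mean of the group with reads, and the lower library alone would give less. Ddc, the decarboxylase that makes dopamine and serotonin from their precursors (chromosome 11, 11814101 to 11898144), lay at 26.1 and 15.4 CPM in Hep_LPCs against 0 and 0 in NPC_LPCs, at least 126-fold higher (adjusted p = 0.0315). Both genes were without a single read in NPC_LPCs. Cpne4, a calcium-dependent membrane-binding copine (chromosome 9, 104547286 to 105034544), lay at 32.3 and 38.7 CPM in Hep_LPCs against 0.384 and 0.248 in NPC_LPCs (log2 difference 6.79 ± 0.45, adjusted p = 0.0169). Gcnt3, a glycosyltransferase that branches mucin sugars, lay at 15.7 and 22.8 CPM in Hep_LPCs against 0.11 and 0.347 in NPC_LPCs (log2 difference 6.33 ± 0.67, adjusted p = 0.0324). In each of these genes the lower Hep_LPCs library was above both NPC_LPCs libraries by a wide margin, 84-fold for Cpne4 and 45.2-fold for Gcnt3. Among the decreases, Angptl2, a secreted angiopoietin-like protein (chromosome 2, 33216069 to 33247717), lay at 0.167 and 0.676 CPM in Hep_LPCs against 74.9 and 113 in NPC_LPCs (log2 difference -7.78 ± 0.64, adjusted p = 0.024). Lxn, the carboxypeptidase inhibitor latexin, lay at 0.222 and 0.225 CPM in Hep_LPCs against 23.7 and 64.6 in NPC_LPCs (log2 difference -7.58 ± 0.72, adjusted p = 0.0315). Scara3, a scavenger receptor, lay at 2.67 and 3.66 CPM in Hep_LPCs against 100.5 and 158 in NPC_LPCs (log2 difference -5.35 ± 0.39, adjusted p = 0.0169). For Lxn and Scara3 the groups were separated by 105-fold and 27.4-fold. Gm4070, an interferon-inducible GTPase gene with a near-identical copy in Gvin1, was among the largest decreases too, and its value is uncertain because reads of such copies can be split or lost in counting.

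**Figure D1:**
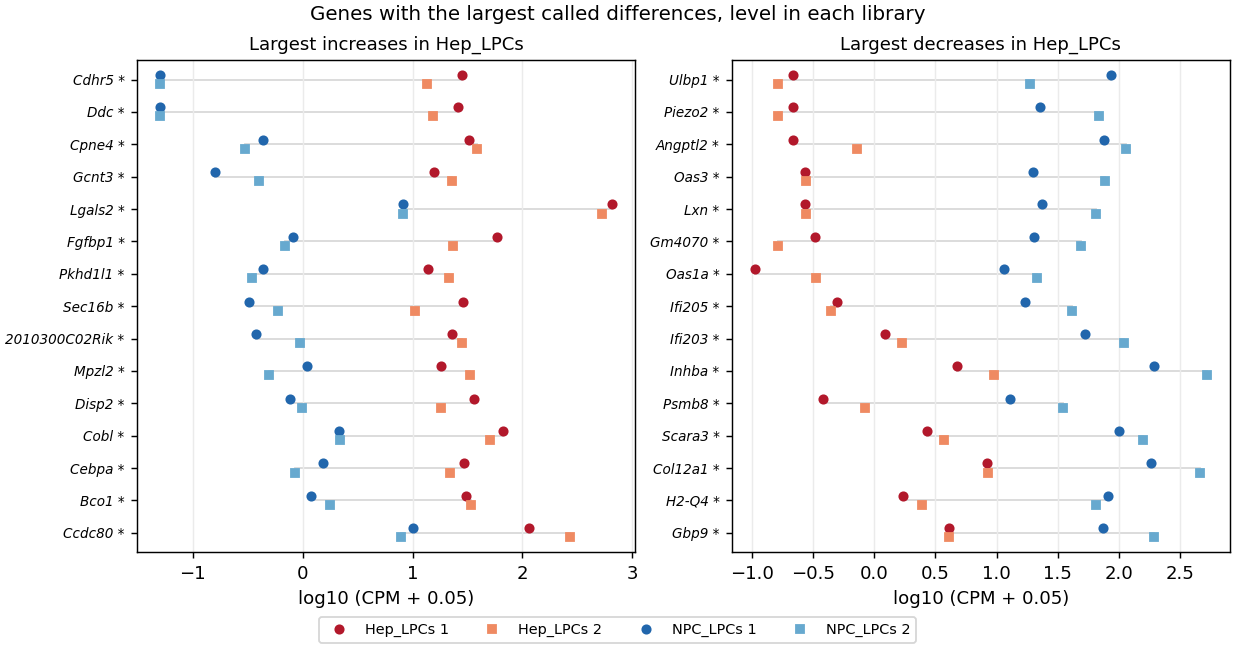
Levels of the 15 largest called increases (left) and 15 largest called decreases (right) in Hep_LPCs, on a log10 axis of CPM plus 0.05, with 1 point for each of the 4 libraries. The Hep_LPCs and NPC_LPCs points do not overlap in any of these genes, and Cdhr5 and Ddc lie at the axis offset in NPC_LPCs because they had no reads there.

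A few called genes outside the lists were chosen for mention after their values were seen. Gc, the vitamin D binding protein of plasma and a product of hepatocytes (chromosome 5, 89417522 to 89457898), was lower in Hep_LPCs, at 36.4 and 24.5 CPM in Hep_LPCs against 611 and 629 in NPC_LPCs (log2 difference -4.35 ± 0.32, adjusted p = 0.0169). Il22ra1, the receptor subunit for interleukin 22, was higher, at 144 and 114 CPM in Hep_LPCs against 19.9 and 19.4 in NPC_LPCs (log2 difference 2.72 ± 0.26, adjusted p = 0.0315). Trib1, a pseudokinase that targets C/EBP proteins for degradation, was higher as well, at 321 and 259 CPM in Hep_LPCs against 66 and 47 in NPC_LPCs (log2 difference 2.36 ± 0.29, adjusted p = 0.0409). Pcsk6, a protease that activates growth factor precursors, lay at 86.4 and 78.5 CPM in Hep_LPCs against 4.94 and 8.17 in NPC_LPCs (log2 difference 3.65 ± 0.35, adjusted p = 0.0315). In bulk libraries such as these, fewer cells of a type and less RNA per cell cannot be told apart.

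**Figure D2:**
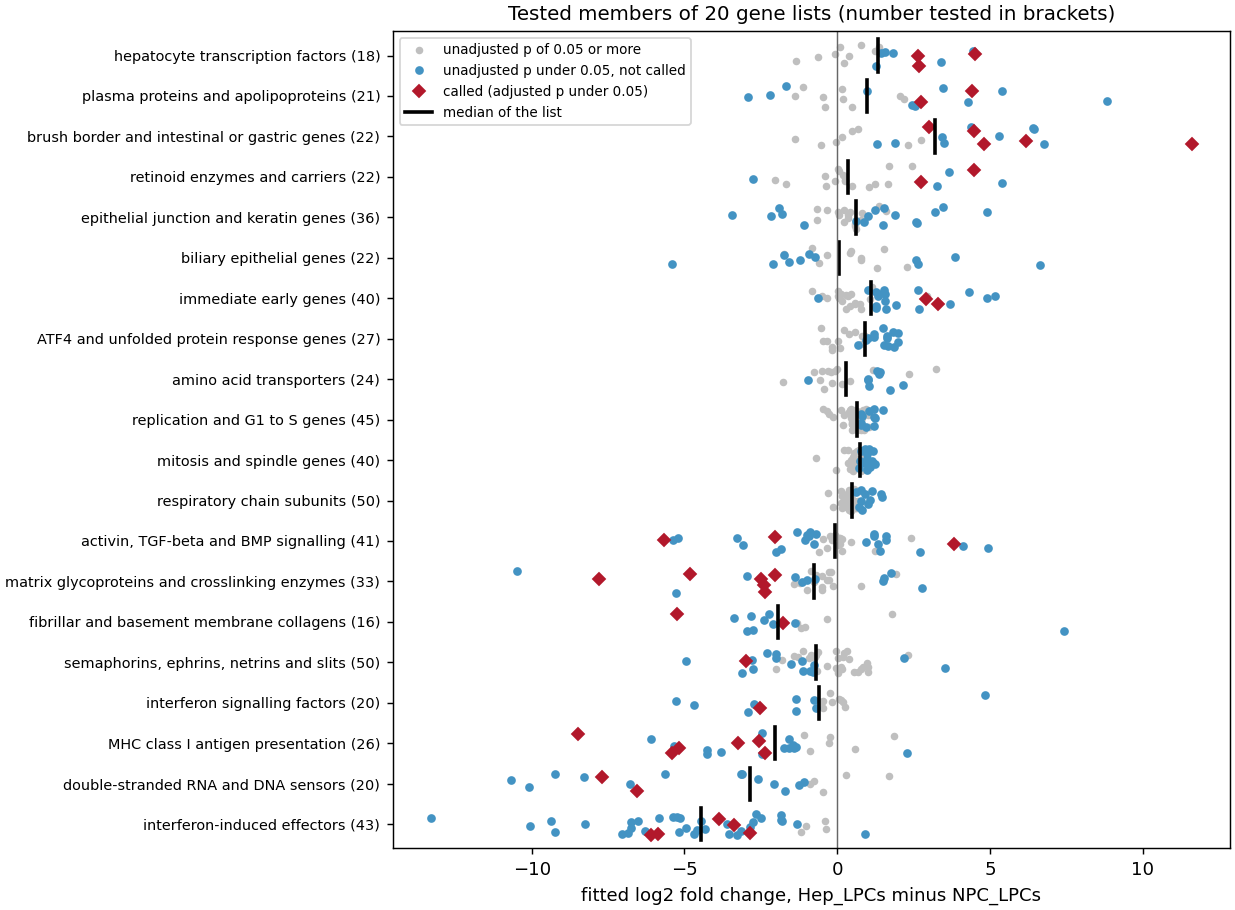
Fitted log2 fold change (Hep_LPCs minus NPC_LPCs) of every tested member of 20 gene lists, with called members as red diamonds, members at a nominal p under 0.05 in blue, the rest in grey and the list median as a black bar. The medians run from -4.47 for interferon-induced effectors to 3.22 for brush border genes.

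Hepatocyte transcription factors were higher in Hep_LPCs in part of the network. Of 23 factors in the deposited tables, 18 were tested, and 3 were called higher and 0 lower, with a list median of 1.33. A nominal p under 0.05 was reached by 9 members, all with higher levels in Hep_LPCs, and by 8 to 10 when any 1 library was left out. Cebpa, the factor C/EBPA of mature hepatocytes (chromosome 7, 35119293 to 35121928), lay at 29.7 and 21.9 CPM in Hep_LPCs against 1.48 and 0.793 in NPC_LPCs (log2 difference 4.50 ± 0.49, adjusted p = 0.0325). Hnf4a, the central nuclear receptor of the network, was called higher too, at 235, 249, 27.4 and 49.9 CPM (adjusted p = 0.0472), so it was detected in NPC_LPCs at a lower level. Foxa3, a pioneer factor of endoderm, lay at 5 and 6.54 CPM in Hep_LPCs against 0.274 and 0.248 in NPC_LPCs and missed the threshold (adjusted p = 0.0581). Per length, Cebpb was the most abundant of the factors, at 61.9, 109, 77.7 and 56.8 FPKM (FPKM, fragments scaled by gene length and depth), and its libraries overlapped between groups (adjusted p = 0.703). Hhex, a homeobox factor of early liver and bile duct, lay at 48.4, 76.6, 60.9 and 56.9 FPKM and overlapped as well (adjusted p = 0.897).

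Of 49 plasma protein and apolipoprotein genes, 21 passed the filter on low counts, and 2 were called higher (Hpx and Rbp4) and 0 lower. Over all genes tested 0.349% were called higher and 0.446% lower. At a nominal p under 0.05 there were 9 higher and 3 lower. Gc, a plasma protein outside this list described above, was called lower (log2 difference -4.35, adjusted p = 0.0169). Apob, the structural protein of very low density lipoprotein, had the highest level of the list per length, at 195, 251, 143 and 82.8 FPKM, and was not called (adjusted p = 0.203). Apoe, a ligand of lipoprotein receptors, lay at 20.6 and 17.5 CPM in Hep_LPCs against 2.31 and 1.14 in NPC_LPCs and missed the threshold (adjusted p = 0.053). Cp, the copper carrier ceruloplasmin, lay the other way, at 280.4 and 352 CPM in Hep_LPCs against 1792 and 1081 in NPC_LPCs (adjusted p = 0.0596). Of 18 markers of mature hepatocytes, 5 had at most 3 reads in every library and 4 of those, Tat, Cyp2e1, Tdo2 and Cyp3a11, had none. Alb, the albumin gene, had 41, 2, 2 and 3 reads. Some defining transcripts of mature hepatocytes were thus at or near 0 in both groups, while 4 markers exceeded 10 CPM in some library and the summed level of all 18 was 3969 to 5180 CPM in Hep_LPCs and 1642 to 3065 CPM in NPC_LPCs.

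Genes of brush borders, the dense microvilli of absorptive epithelium, had the highest median of the 48 gene lists. Of 47 brush border and intestinal or gastric genes 22 were tested, 5 were called higher (Cdx2, Cobl, Cdhr5, Lgals2 and Bco1) and 0 lower, with a median of 3.22. Separation of at least 2-fold was seen in 14 members with Hep_LPCs higher and in 0 with Hep_LPCs lower. At a nominal p under 0.05 14 members passed, and 10 to 16 when any 1 library was left out. The members that did not pass the filter on low counts are not described by these values. That filter can be passed by reads in either group alone. Cdhr5, without reads in NPC_LPCs, passed it through Hep_LPCs, so the median and the counts are not independent of the filter. Cobl, an actin nucleator of microvilli (chromosome 11, 12236608 to 12464960), lay at 67.2 and 50.9 CPM in Hep_LPCs against 2.09 and 2.13 in NPC_LPCs (log2 difference 4.80 ± 0.34, adjusted p = 0.0169). Lgals2, a small sugar-binding galectin, stood out by its level, at 973, 809, 11.4 and 12.2 FPKM, and had the smallest p of all genes tested (adjusted p = 0.0128). Among the other galectins, Lgals4 of intestinal epithelium lay at 29.5 and 11.7 CPM in Hep_LPCs against 2.09 and 1.54 in NPC_LPCs and missed the threshold (adjusted p = 0.0679), while Lgals1, the most abundant per length, lay at 1017, 1308, 668 and 835 FPKM (adjusted p = 0.314). Cdx2, a homeobox factor of the intestine, lay at 32.9, 29.3, 3.35 and 4.41 CPM (adjusted p = 0.0382). Of the partners of Cdhr5 in the microvillus, chosen after their values were seen, Cdhr2 lay at 10.2 and 48.1 CPM in Hep_LPCs against 0.0549 and 0.594 in NPC_LPCs (adjusted p = 0.0811) and Vil1, the actin bundler villin, at 18.3 and 10.7 CPM in Hep_LPCs against 0.11 and 4.16 in NPC_LPCs (adjusted p = 0.305). Krt20, a keratin of the gut lining, lay at 197 and 227 CPM in Hep_LPCs against 83.3 and 30.4 in NPC_LPCs without passing (adjusted p = 0.111).

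Further called genes outside that list, chosen after their values were seen, were Anks4b, Clic5 and Plac8. Anks4b, a scaffold that joins the microvillar protocadherins to the cytoskeleton, lay at 66.1 and 48.4 CPM in Hep_LPCs against 3.02 and 6.14 in NPC_LPCs (log2 difference 3.64 ± 0.45, adjusted p = 0.0409). Clic5, a chloride intracellular channel protein found with ezrin in microvilli, lay at 10.9 and 14.9 CPM in Hep_LPCs against 0.165 and 0.149 in NPC_LPCs (log2 difference 6.31 ± 0.61, adjusted p = 0.0315). Plac8, a small cysteine-rich protein, lay at 36.6 and 67.4 CPM in Hep_LPCs against 2.25 and 3.17 in NPC_LPCs (log2 difference 4.26 ± 0.45, adjusted p = 0.0324). Of 22 tested retinoid genes, 2 were called higher, Rbp4 and Bco1, and 0 lower, with 5 higher and 1 lower at a nominal p under 0.05. Bco1, the enzyme that cleaves carotene into retinal, lay at 30.5 and 33.7 CPM in Hep_LPCs against 1.15 and 1.73 in NPC_LPCs (log2 difference 4.46 ± 0.40, adjusted p = 0.0315). Rdh10, which oxidises retinol, was the most abundant per length at 122, 251, 50.1 and 137 FPKM and overlapped between groups (adjusted p = 0.347).

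**Figure D3:**
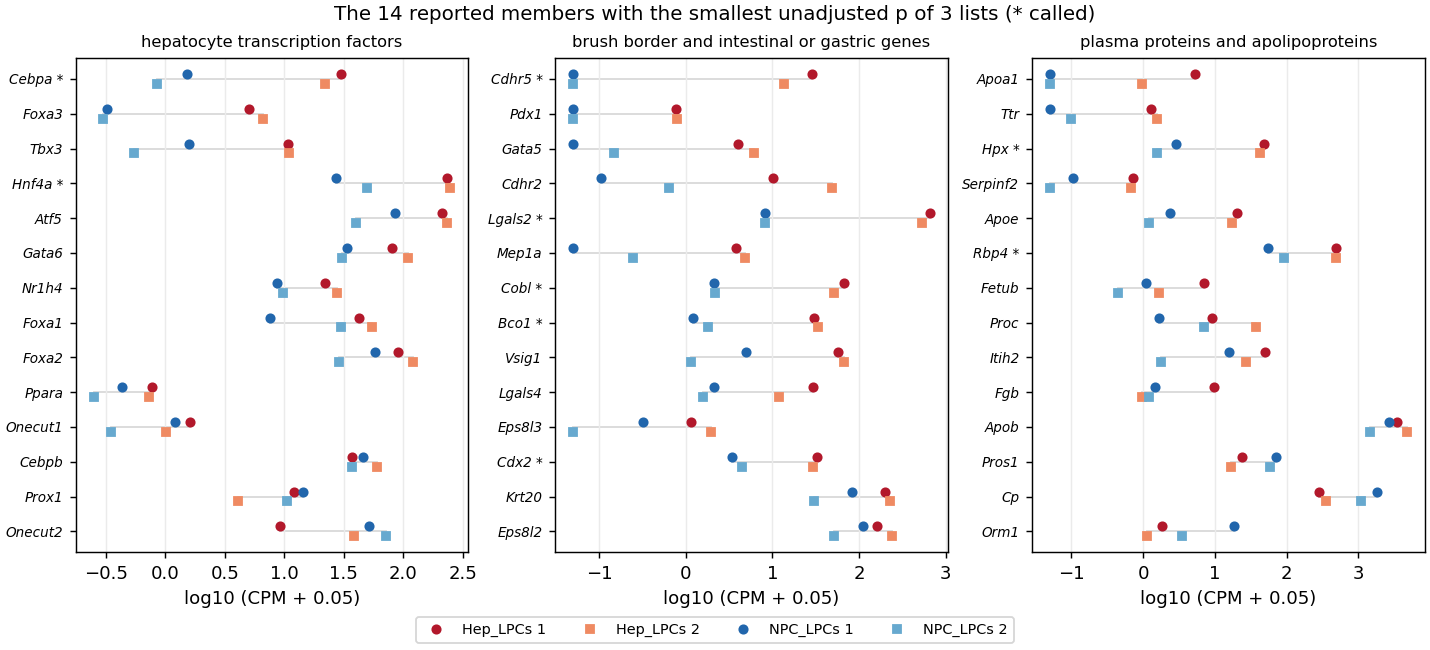
Levels in the 4 libraries (log10 of CPM plus 0.05) of the 14 reported members with the smallest nominal p in the hepatocyte transcription factor, brush border and plasma protein lists, with called genes marked by an asterisk. Cebpa and Hnf4a separate the groups, while in the plasma protein panel Cp runs the opposite way to Hpx and Rbp4.

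Interferon-stimulated genes and genes of antigen presentation were among those called lower in Hep_LPCs. The element that the STAT and IRF factors bind was looked for in their promoters, because it is known from genes of several families. The motif, GAAA followed by any 2 bases and another GAAA, was searched on both strands in the 250 bases before each transcript start listed in the RefSeq promoter sequences of build GRCm38.p6. A gene can have several such starts, and was counted where any of its windows held the motif. It was present in 11 of the 45 genes called lower that had a promoter sequence (24.4%), in 0 of the 30 called higher, in 3.13% of 9519 genes tested and in 2.98% of all 32851 promoter windows. For each of the 11, the window with the most matches is shown with up to 20 bases on each side, cut at that start, in the direction of transcription, and the matches are in capitals. A match on the opposite strand reads TTTC, any 2 bases and TTTC, and overlapping matches are joined in 1 run of capitals.
Oas3, chr5:120777705-120777754, minus strand: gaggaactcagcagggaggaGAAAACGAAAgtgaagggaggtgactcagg
Oas1a, chr5:120907526-120907565, minus strand: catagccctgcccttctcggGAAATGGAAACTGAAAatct
Ifi203, chr1:173942498-173942547, minus strand: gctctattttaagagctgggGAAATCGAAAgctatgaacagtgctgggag
Ifi205, chr1:174031860-174031909, minus strand: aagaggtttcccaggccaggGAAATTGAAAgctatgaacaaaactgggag
Mndal, chr1:173879983-173880032, minus strand: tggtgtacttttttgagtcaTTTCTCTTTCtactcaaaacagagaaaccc
Bst2, chr8:71537567-71537622, minus strand: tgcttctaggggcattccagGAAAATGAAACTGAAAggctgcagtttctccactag
Stat2, chr10:128270256-128270305, plus strand: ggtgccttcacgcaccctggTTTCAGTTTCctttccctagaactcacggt
B2m, chr2:122147528-122147577, plus strand: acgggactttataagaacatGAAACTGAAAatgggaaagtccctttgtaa
Trim12c, chr7:104353350-104353398, minus strand: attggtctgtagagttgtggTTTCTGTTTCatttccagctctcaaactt
Tnfrsf1b, chr4:145246871-145246900, minus strand: cctagctcctggcctgagggTTTCGCTTTC
Kif1a, chr1:93082481-93082520, minus strand: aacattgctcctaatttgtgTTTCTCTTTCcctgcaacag
The windows of Kif1a, Mndal and Ifi203 lie inside the gene as GENCODE annotates it, and so before a start other than the outermost of that annotation. A match describes letters in a window and is not evidence of a bound site. Oas1a and Bst2 hold overlapping matches, and the windows of Ifi203 and Ifi205 carry 1 match each in a similar setting. Kif1a, a neuronal kinesin, and Tnfrsf1b, a receptor of tumour necrosis factor, belong to neither the interferon nor the antigen presentation lists, nor do Mndal, of the HIN-200 family, and Trim12c, of the tripartite motif family. By list, the motif was present in 21 of 36 effectors (58.3%), 4 of 14 sensors (28.6%), 3 of 16 signalling factors (18.8%) and 3 of 22 antigen presentation genes (13.6%) with a promoter sequence.

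Stat2 was the called member among the signalling factors. Of 20 tested signalling factors, 1 was called lower and 0 higher, with a median of -0.58. At a nominal p under 0.05 there were 1 higher and 9 lower, and by DESeq2 1 higher and 6 lower. Stat2 (chromosome 10, 128270559 to 128292849) lay at 22.9 and 30.2 CPM in Hep_LPCs against 119 and 188 in NPC_LPCs (log2 difference -2.53 ± 0.33, adjusted p = 0.047). Irf9, its DNA-binding partner, lay at 7.06 and 9.47 CPM in Hep_LPCs against 38.9 and 69.2 in NPC_LPCs and missed the threshold (adjusted p = 0.053). Ifnar1, a subunit of the type I interferon receptor chosen after its values were seen, was detected in all libraries at 55, 58.3, 83.2 and 99.6 CPM (adjusted p = 0.176). The interferon genes Ifnb1, Ifnl2 and Ifnl3, also chosen after the values were seen, had no reads in any of the 4 libraries. At this depth, no reads allow a level of up to 3 reads per library, the 0.149 to 0.169 CPM given above, counting error only.

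Among sensors of double-stranded RNA and of cytosolic DNA, the oligoadenylate synthetases Oas1a and Oas3 were called lower in Hep_LPCs. All 20 listed sensors were tested, 2 were called lower and 0 higher, 15 were lower at a nominal p under 0.05 (9 to 16 with any 1 library left out), and the median was -2.86. These enzymes make the messenger that activates RNase L, and the 4 described here were at or near 0 in Hep_LPCs. Oas3 (chromosome 5, 120753098 to 120777661) lay at 0.222 and 0.225 CPM in Hep_LPCs against 19.9 and 76.7 in NPC_LPCs (log2 difference -7.71 ± 0.89, adjusted p = 0.0379), and Oas1a (chromosome 5, 120896256 to 120907521) at 0.0556 and 0.282 CPM in Hep_LPCs against 11.4 and 21.2 in NPC_LPCs (log2 difference -6.54 ± 0.83, adjusted p = 0.0429). Oas1g and Oas2 had no reads in Hep_LPCs, with 0, 0, 84 and 202 reads and 0, 0, 90 and 343 reads, which is at least 43.2-fold and 64.8-fold lower, and both missed the threshold (adjusted p = 0.0558 and adjusted p = 0.059). Eif2ak2, the kinase PKR that halts translation, was the most abundant sensor per length, at 7.22, 7.99, 15.2 and 35.6 FPKM, and was present in Hep_LPCs (adjusted p = 0.103). Further members were chosen after their values were seen. Tmem173, the adaptor STING of DNA sensing, lay at 0.0556 and 0.169 CPM in Hep_LPCs against 9.44 and 64.4 in NPC_LPCs (adjusted p = 0.0697). Ddx58 and Ifih1, the helicases RIG-I and MDA5 that detect viral RNA, lay at 15.5, 23.2, 96.8 and 242 CPM (adjusted p = 0.0639) and 9.95, 9.64, 43.4 and 128 CPM (adjusted p = 0.07). Mavs, the mitochondrial adaptor of those helicases, lay at 59.3, 53.5, 50.3 and 42.8 CPM (adjusted p = 0.539).

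Interferon-induced effectors had the lowest median of the 48 gene lists. Of 49 effectors 43 were tested, with a median of -4.47. By edgeR 5 were called lower and 0 higher, and by DESeq2 37 lower, against 6.5% of all genes called lower by DESeq2. With lower levels in Hep_LPCs 38 members passed the nominal threshold, and 25 to 37 when any 1 library was left out. The member with a higher level at that threshold was Isg20, an exonuclease, at 45.6 and 39.3 CPM in Hep_LPCs against 19.8 and 24.9 in NPC_LPCs (adjusted p = 0.145). Ifi203 and Ifi205 belong to the HIN-200 family of nuclear proteins that bind DNA. Ifi203 (chromosome 1, 173920407 to 173942672) lay at 1.17 and 1.63 CPM in Hep_LPCs against 52.7 and 110.1 in NPC_LPCs (log2 difference -5.86 ± 0.51, adjusted p = 0.0315), and Ifi205 at 0.445 and 0.395 CPM in Hep_LPCs against 17 and 41.7 in NPC_LPCs (log2 difference -6.11 ± 0.64, adjusted p = 0.0324). Bst2, the membrane protein tetherin that holds back budding viruses, lay at 9.72 and 11.4 CPM in Hep_LPCs against 85 and 227 in NPC_LPCs (log2 difference -3.88 ± 0.52, adjusted p = 0.0472). Samd9l, a restriction factor, was well above 0 in both groups, at 28.5 and 55.4 CPM in Hep_LPCs against 273 and 332 in NPC_LPCs (log2 difference -2.85 ± 0.39, adjusted p = 0.0474). Ifi27, an interferon-induced membrane protein, was the fifth called member, at 1.39 and 1.92 CPM in Hep_LPCs against 17.6 and 17 in NPC_LPCs (log2 difference -3.38 ± 0.43, adjusted p = 0.0455). Outside the list, Gbp9, a guanylate-binding GTPase among the largest decreases, lay at 4 and 4.06 CPM in Hep_LPCs against 74 and 193 in NPC_LPCs (log2 difference -5.05 ± 0.54, adjusted p = 0.0325). Ifitm2, a membrane protein that blocks viral entry, was among the most abundant per length at 261, 266, 299 and 349.6 FPKM and was not called (adjusted p = 0.418). It shares exons and sequence with another gene, and its value is uncertain.

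The NPC_LPCs libraries were unequal in these genes. NPC_LPCs replicate 2 was over 2-fold above NPC_LPCs replicate 1 in 35 of 43 effectors (81.4%) and in 17 of 20 sensors (85.0%), against 7.74% of all genes tested. The median ratio of replicate 2 to replicate 1 was 2.94 for the effectors, 2.57 for the sensors and 1.03 over all genes. Isg15, a ubiquitin-like protein and classical interferon target, is an example, at 0.0556 and 0.282 CPM in Hep_LPCs against 4.83 and 101 in NPC_LPCs, and was not called (adjusted p = 0.108). Ifit1, which binds RNA that lacks the host cap mark, had no reads in Hep_LPCs and lay at 0, 0, 15.5 and 120.2 CPM, again without a call (adjusted p = 0.0858). It was at least 401-fold lower by the NPC_LPCs mean, which comes mostly from replicate 2. Both were chosen after their values were seen, and their windows are shown because they hold several matches of the motif.
Isg15, chr4:156200855-156200916, minus strand: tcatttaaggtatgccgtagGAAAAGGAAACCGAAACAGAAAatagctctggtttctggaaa
Ifit1, chr19:34640765-34640833, plus strand: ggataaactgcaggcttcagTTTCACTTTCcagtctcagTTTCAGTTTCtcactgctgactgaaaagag
When any 1 library was left out, the median of the effectors ran from -5.14 to -3.01. The source of the difference between the NPC_LPCs libraries was not tested.

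**Figure D4:**
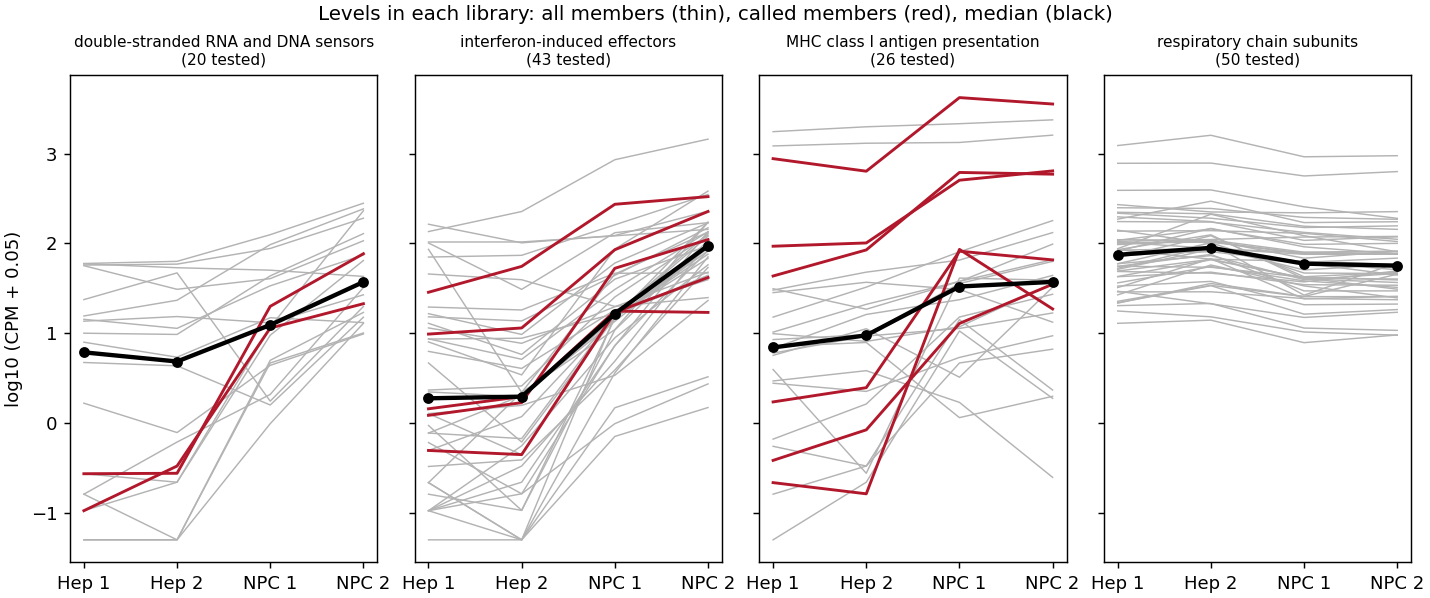
Levels of each tested member in the 4 libraries (log10 of CPM plus 0.05) for RNA and DNA sensors, interferon-induced effectors, MHC class I genes and, for comparison, respiratory chain subunits. Thin lines are single genes, red lines called genes and the black line the median, which climbs from NPC_LPCs 1 to NPC_LPCs 2 in the first pair of panels and is near flat for the respiratory chain.

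Genes of MHC class I antigen presentation, which load peptides of the cell's own proteins for display to T cells, were lower in Hep_LPCs at several steps. All 26 listed genes were tested, 6 were called lower and 0 higher, and the median was -2.05. The nominal threshold was passed by 19 lower and 1 higher members, with 14 to 20 lower when any 1 library was left out. The NPC_LPCs libraries were split in these genes: replicate 2 was over 2-fold above replicate 1 in 6 and replicate 1 over 2-fold above replicate 2 in 5 of 26. The classical heavy chains were called: H2-K1 (chromosome 17, 33996017 to 34000347) lay at 43.3 and 84.5 CPM in Hep_LPCs against 617 and 590.0 in NPC_LPCs (log2 difference -3.24 ± 0.39, adjusted p = 0.0409), and H2-D1 (chromosome 17, 35262730 to 35267499) at 93 and 101 CPM in Hep_LPCs against 505 and 642 in NPC_LPCs (log2 difference -2.56 ± 0.27, adjusted p = 0.0324). H2-Q4, a heavy chain of the Qa group, showed a larger difference, at 1.67 and 2.42 CPM in Hep_LPCs against 81.8 and 65.4 in NPC_LPCs (log2 difference -5.17 ± 0.36, adjusted p = 0.0169). The class I genes of mouse are similar in sequence, so reads can be shared among them. B2m, the invariant light chain (chromosome 2, 122147686 to 122153083), was the most abundant of these called genes per length, at 1137, 781, 5039.9 and 4496 FPKM, and fell by 2.36 on the log2 scale with an SE of 0.30 (adjusted p = 0.0455). In the supply of peptides, Psmb8, a catalytic subunit of the immunoproteasome, lay at 0.333 and 0.789 CPM in Hep_LPCs against 12.8 and 35.1 in NPC_LPCs (log2 difference -5.40 ± 0.76, adjusted p = 0.0498). Tap1 and Tap2, the subunits of the peptide transporter, were chosen after their values were seen. They lay at 8.45, 9.58, 35.7 and 63 CPM (adjusted p = 0.0569) and 0.611, 1.58, 15.1 and 27.1 CPM (adjusted p = 0.056) without a call. Pdia3, a chaperone of the loading complex with many other roles, lay at 355, 364, 381 and 478 FPKM (adjusted p = 0.648). Ulbp1, a class I-like ligand of the activating receptor NKG2D of natural killer cells, was near 0 in Hep_LPCs and uneven in NPC_LPCs, at 0.167 and 0.113 CPM in Hep_LPCs against 85.7 and 18.6 in NPC_LPCs (log2 difference -8.47 ± 1.06, adjusted p = 0.0472). Other ligands of that receptor, chosen after their values were seen, were not called: Raet1d lay at 7.06, 7.83, 1.1 and 1.93 CPM (adjusted p = 0.109) and H60b at 2.89, 3.78, 1.65 and 0.198 CPM (adjusted p = 0.34).

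Among genes of inflammation, Tnfaip2 and Steap4 were called lower and Hpx higher. Of 28 NF-kB subunits, feedback genes and cytokines, 1 was called lower and 0 higher, with 5 higher and 7 lower at a nominal p under 0.05 and a median of -0.21. Tnfaip2, a gene induced by tumour necrosis factor, lay at 17.7 and 24 CPM in Hep_LPCs against 119 and 81.3 in NPC_LPCs (log2 difference -2.26 ± 0.32, adjusted p = 0.0498). Tnfrsf1b, a receptor of that cytokine outside the list, was chosen after its values were seen. It lay at 13.1 and 21.3 CPM in Hep_LPCs against 83 and 95.7 in NPC_LPCs (log2 difference -2.38 ± 0.33, adjusted p = 0.0477). Nfkbia, the inhibitor that NF-kB induces as feedback, lay the other way at 275 and 327 CPM in Hep_LPCs against 98.2 and 104 in NPC_LPCs and missed the threshold (adjusted p = 0.0569). None of 16 chemokine ligands was called by edgeR, while 3 were higher and 3 lower at a nominal p under 0.05. By DESeq2 3 were higher and 2 lower, against 5.81% of all genes called higher by DESeq2. Of the neutrophil chemokines, Cxcl2 lay at 117 and 42.2 CPM in Hep_LPCs against 2.58 and 8.42 in NPC_LPCs (adjusted p = 0.0888) and Cxcl1, the most abundant per length, at 1548, 1322, 1302 and 935 FPKM (adjusted p = 0.46). Among 17 tested acute phase genes 1 was called higher (Hpx) and 1 lower (Steap4), with a median of -1.34. When any 1 library was left out the median ran from -2.08 to 0.01. The value of 0.01 was that without NPC_LPCs replicate 1, so the lower median rests on that library. In that list 1 higher and 8 lower members passed a nominal p under 0.05. The DESeq2 calls there were 1 higher and 7 lower. Steap4, a metalloreductase, lay at 0.945 and 0.507 CPM in Hep_LPCs against 20.3 and 21.4 in NPC_LPCs (log2 difference -4.83 ± 0.50, adjusted p = 0.0324). Lcn2, the iron-binding lipocalin, differed widely within each group, at 119 and 16 CPM in Hep_LPCs against 1736 and 674 in NPC_LPCs, and was not called (adjusted p = 0.131).

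Matrix genes were lower in Hep_LPCs in glycoproteins and in selected collagens. Of 48 matrix glycoproteins and crosslinking enzymes 33 were tested, 6 were called lower (Fn1, Fbln2, Ltbp1, Tnc, Hspg2 and Angptl2) and 0 higher, with a median of -0.74. Nominally, at p under 0.05, there were 13 lower and 4 higher members. Tnc, tenascin C, a glycoprotein of wounds and stem cell niches (chromosome 4, 63959785 to 64047015), lay at 54.5 and 83 CPM in Hep_LPCs against 2054 and 1785 in NPC_LPCs (log2 difference -4.80 ± 0.35, adjusted p = 0.0169). Hspg2, perlecan, the heparan sulfate proteoglycan of basement membranes (chromosome 4, 137468769 to 137570630), lay at 153 and 192 CPM in Hep_LPCs against 723 and 1074 in NPC_LPCs (log2 difference -2.38 ± 0.32, adjusted p = 0.0472). Fn1, fibronectin, was the most abundant per length, at 98.3, 91.9, 474 and 581 FPKM, which is a high level in both groups (-2.49 ± 0.29 on the log2 scale, adjusted p = 0.0376). Ccdc80, a secreted matrix protein outside the list, ran the other way at 115 and 271 CPM in Hep_LPCs against 9.99 and 7.88 in NPC_LPCs (log2 difference 4.44 ± 0.50, adjusted p = 0.034).

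Of 27 fibrillar and basement membrane collagens 16 were tested, with a median of -1.93, 2 called lower and 0 higher. The same threshold before adjustment was passed by 10 lower and 1 higher members, with 8 to 11 lower when any 1 library was left out. Col12a1, a collagen that coats fibrils (chromosome 9, 79598991 to 79718831), lay at 8.28 and 8.51 CPM in Hep_LPCs against 182 and 461 in NPC_LPCs (log2 difference -5.26 ± 0.53, adjusted p = 0.0315). Col27a1, a fibrillar collagen, lay at 29.5 and 35.1 CPM in Hep_LPCs against 115 and 103 in NPC_LPCs (log2 difference -1.76 ± 0.24, adjusted p = 0.0483). The basement membrane chains Col4a1 and Col4a2 had the highest levels per length, at 20.9, 37.4, 80.5 and 164 FPKM and 15.3, 32.3, 72.1 and 139 FPKM, and were not called (adjusted p = 0.0893 and adjusted p = 0.0854). Col1a2 and Col3a1, collagen chains of stellate cells, had 0, 0, 0 and 28 reads and 0, 0, 0 and 21 reads, so that NPC_LPCs replicate 2 was the library that held them. Acta2, the smooth muscle actin of activated stellate cells, had 0, 0, 0 and 46 reads, in the same library. These counts are small beside the matrix genes above, and the part of such cells in those genes was not tested. Tns1, tensin 1, which ties integrins to actin and was chosen after its values were seen (chromosome 1, 73910231 to 74124449), lay at 28.6 and 35.2 CPM in Hep_LPCs against 1010.1 and 983 in NPC_LPCs (log2 difference -4.97 ± 0.29, adjusted p = 0.0169). No integrin or laminin of 25 tested was called by edgeR, with 7 higher and 6 lower at a nominal p under 0.05 and 5 higher and 2 lower by DESeq2. Itgb4, the hemidesmosome integrin, lay at 110.5 and 194 CPM in Hep_LPCs against 17.3 and 39.7 in NPC_LPCs (adjusted p = 0.0806).

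Of the regulators and markers of the epithelial to mesenchymal transition, 17 were tested and 2, Fn1 and Tnc of the matrix list, were called lower, with a median of -0.75. At a nominal p under 0.05 1 higher and 7 lower members passed, and DESeq2 had 0 higher and 4 lower. Vim, the mesenchymal filament vimentin, had the highest level per length, at 936, 1096, 741 and 881 FPKM, and was not called (adjusted p = 0.543). The repressors Zeb1 and Zeb2 lay at 47.4, 33.2, 74.5 and 90.2 CPM (adjusted p = 0.125) and 49.7, 26.5, 114 and 109 CPM (adjusted p = 0.0939). No gene of the epithelial junction and keratin list was called by edgeR among 36 tested, with 12 higher and 5 lower at a nominal p under 0.05, a median of 0.61, and 9 higher and 3 lower by DESeq2. Krt8 and Krt18, the keratin pair of simple epithelia, lay at 922, 1793, 301 and 612 FPKM (adjusted p = 0.154) and 807, 1820.2, 366 and 708 FPKM (adjusted p = 0.218). Krt19, the keratin of bile ducts, lay at 1435 and 885 CPM in Hep_LPCs against 111 and 275 in NPC_LPCs (adjusted p = 0.0791). Epcam, the surface marker of bile duct and progenitor cells, was near 0 in both groups, at 0.333, 1.75, 0.11 and 0.594 CPM. Esrp2, a splicing regulator of epithelial cells, lay at 56.7 and 54.6 CPM in Hep_LPCs against 23.1 and 15.2 in NPC_LPCs (adjusted p = 0.0794).

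In the TGF-beta superfamily, an activin gene was lower and a BMP gene higher in Hep_LPCs. Of 41 tested members 1 was called higher and 2 lower, with 11 higher and 15 lower at a nominal p under 0.05, and the median was -0.07. Inhba, which forms activin A (chromosome 13, 16011851 to 16031621), lay at 4.67 and 9.52 CPM in Hep_LPCs against 195 and 525 in NPC_LPCs (log2 difference -5.66 ± 0.68, adjusted p = 0.0441). Ltbp1, which stores latent TGF-beta in the matrix, lay at 61.9 and 69.8 CPM in Hep_LPCs against 224 and 318 in NPC_LPCs (log2 difference -2.04 ± 0.28, adjusted p = 0.0477). Bmp7, a ligand of the BMP branch (chromosome 2, 172868012 to 172940321), lay at 24.2 and 47.3 CPM in Hep_LPCs against 1.98 and 3.07 in NPC_LPCs (log2 difference 3.82 ± 0.50, adjusted p = 0.047). Of the listed ligands chosen after their values were seen, Inhbb, which forms activin B, lay at 0.167 and 0.225 CPM in Hep_LPCs against 3.29 and 13.4 in NPC_LPCs (adjusted p = 0.0739) and Tgfb1 at 37.7 and 37.4 CPM in Hep_LPCs against 75.2 and 112 in NPC_LPCs (adjusted p = 0.087). Fst, the secreted inhibitor follistatin, also chosen after its values were seen, lay at 13.5 and 13.9 CPM in Hep_LPCs against 22 and 23.9 in NPC_LPCs (adjusted p = 0.223). Bmp4, a relative of Bmp7, lay at 44.7 and 41.9 CPM in Hep_LPCs against 13.3 and 15.6 in NPC_LPCs (adjusted p = 0.0696). Id1 and Id2, targets of BMP signalling that block helix-loop-helix factors, lay at 83.3 and 142 CPM in Hep_LPCs against 45.4 and 40.5 in NPC_LPCs (adjusted p = 0.0982) and 435 and 455 CPM in Hep_LPCs against 189.9 and 158 in NPC_LPCs (adjusted p = 0.0739). The libraries of Bmp4, Id1 and Id2 did not overlap between groups, as in 56.4% of all genes, but none of them was called.

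Other signalling families held single called genes. In the EGF, FGF and HGF list, with 42 tested, Fgfbp1 and Fgfr2 were called, 10 higher and 7 lower members passed a nominal p under 0.05 and the median was 0.15. Fgfbp1, a carrier that releases FGFs from the matrix, lay at 58.6 and 23.1 CPM in Hep_LPCs against 0.768 and 0.644 in NPC_LPCs (log2 difference 5.84 ± 0.62, adjusted p = 0.0324). Fgfr2, a receptor of FGFs, ran the other way at 10.3 and 13.4 CPM in Hep_LPCs against 79.9 and 65.1 in NPC_LPCs (log2 difference -2.61 ± 0.29, adjusted p = 0.0349). Fgf1 lay at 102 and 51.3 CPM in Hep_LPCs against 14.4 and 9.02 in NPC_LPCs and missed the threshold (adjusted p = 0.0649). Among 16 Notch genes Dlk2, a non-canonical ligand, was called at 13.6 and 18 CPM in Hep_LPCs against 1.21 and 1.04 in NPC_LPCs (log2 difference 3.81 ± 0.47, adjusted p = 0.0409), while the target Hes1 lay at 131 and 199 CPM in Hep_LPCs against 36.8 and 55.3 in NPC_LPCs (adjusted p = 0.0747) and the ligand Jag1 at 95 and 65.6 CPM in Hep_LPCs against 191 and 347 in NPC_LPCs (adjusted p = 0.0887). The Notch list held 4 higher and 4 lower at a nominal p under 0.05. Of 50 semaphorin, ephrin, netrin and slit genes 1 was called, Nrp2, the neuropilin receptor of class 3 semaphorins and VEGF-C, at 15.6 and 23.2 CPM in Hep_LPCs against 173 and 134 in NPC_LPCs (log2 difference -2.98 ± 0.32, adjusted p = 0.0325). In that family 14 members were lower and 2 higher at a nominal p under 0.05, with a median of -0.71. Piezo2, a mechanically gated channel, was near 0 in Hep_LPCs and uneven in NPC_LPCs, at 0.167 and 0.113 CPM in Hep_LPCs against 22.8 and 69.2 in NPC_LPCs (adjusted p = 0.0315).

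Among genes induced by stress and by growth signals, Atf3 and Zfp36 were called higher in Hep_LPCs. Of 40 immediate early genes 2 were called higher and 0 lower, 19 were higher and 1 lower at a nominal p under 0.05, and the median was 1.10. Atf3, a factor of the integrated stress response (chromosome 1, 191170296 to 191218039), lay at 62.1 and 72.6 CPM in Hep_LPCs against 8.73 and 9.02 in NPC_LPCs (log2 difference 2.92 ± 0.27, adjusted p = 0.0315). Zfp36, which shortens the life of cytokine messages, was the other called member, at 315 and 374 CPM in Hep_LPCs against 37.7 and 32.4 in NPC_LPCs (adjusted p = 0.024). Egr1, a growth factor response gene, lay at 205 and 128 CPM in Hep_LPCs against 17.1 and 35.6 in NPC_LPCs (adjusted p = 0.0679), and Ier3, the most abundant with Cyr61 per length, at 199.8, 312, 159 and 215 FPKM (adjusted p = 0.501).

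None of 27 tested genes of ATF4 and the unfolded protein response was called by edgeR, yet 14 reached a nominal p under 0.05, all with higher levels in Hep_LPCs, and DESeq2 called 12 higher. The median was 0.93, and 9 members were separated by at least 2-fold. ATF4 is the factor that raises amino acid synthesis and uptake when translation is restrained. Atf4 itself lay at 322, 394, 192 and 120.4 FPKM (adjusted p = 0.116). Phgdh, the first enzyme of serine synthesis, lay at 717 and 799 CPM in Hep_LPCs against 267 and 222 in NPC_LPCs (adjusted p = 0.0581). Mthfd2, the mitochondrial folate enzyme, lay at 104 and 104 CPM in Hep_LPCs against 31 and 35.4 in NPC_LPCs (adjusted p = 0.0521). Asns, asparagine synthetase, lay at 302 and 359 CPM in Hep_LPCs against 121 and 86.2 in NPC_LPCs (adjusted p = 0.0679). The next enzymes of serine and glycine synthesis, chosen after their values were seen, were Psat1 at 390.0, 671, 157 and 112 CPM (adjusted p = 0.0747), Psph at 58.5, 82.6, 22.8 and 26.2 CPM (adjusted p = 0.0762) and Shmt2 at 407, 506, 138 and 185 CPM (adjusted p = 0.075). The endoplasmic reticulum chaperone genes Hyou1 and Manf, also chosen after their values were seen, overlapped between groups. Hyou1 lay at 227, 159, 179 and 253 CPM (adjusted p = 0.792) and Manf at 143, 125, 116 and 144 CPM (adjusted p = 0.94). In Mthfd2, Phgdh and Asns both Hep_LPCs libraries were over 2-fold above both NPC_LPCs libraries, by 2.93-fold for Mthfd2. Amino acid transporters gave 0 of 24 called by edgeR, 8 higher by DESeq2, and 8 higher and 1 lower at a nominal p under 0.05. Slc7a5, the carrier of large neutral amino acids, lay at 236 and 171 CPM in Hep_LPCs against 68.4 and 85.7 in NPC_LPCs (adjusted p = 0.0799).

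The C/EBP-ATF element TGATGCAA, which ATF4 binds with C/EBP partners, was searched in the same way. It was present before a listed start in 4 of 24 genes of this list with a promoter sequence (16.7%), in 0.63% of genes tested and in 0.791% of all promoter windows, and in Atf3 among the genes called higher. These windows are shown because they hold the element beside genes of amino acid and stress metabolism. The matches are in capitals, and TTGCATCA is the element on the opposite strand (RefSeq, GRCm38.p6).
Atf3, chr1:191183416-191183463, minus strand: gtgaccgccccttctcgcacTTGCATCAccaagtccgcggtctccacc
Chac1, chr2:119351029-119351076, plus strand: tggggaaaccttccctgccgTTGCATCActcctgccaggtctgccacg
Herpud1, chr8:94386297-94386344, plus strand: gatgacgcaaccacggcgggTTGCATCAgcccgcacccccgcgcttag
Pycr1, chr11:120643824-120643871, minus strand: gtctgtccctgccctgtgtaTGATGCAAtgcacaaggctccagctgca
Vldlr, chr19:27216800-27216847, plus strand: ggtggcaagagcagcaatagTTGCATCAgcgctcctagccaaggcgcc
The windows of Atf3 and Vldlr lie inside the gene as GENCODE annotates it too. The element was not found in most members of the list. Chac1, which degrades glutathione, lay at 31.8 and 41 CPM in Hep_LPCs against 14.8 and 5.3 in NPC_LPCs (adjusted p = 0.133), Herpud1, of the endoplasmic reticulum, at 211 and 211 CPM in Hep_LPCs against 157 and 65.1 in NPC_LPCs (adjusted p = 0.271), and Pycr1, of proline synthesis, at 21.1 and 23.8 CPM in Hep_LPCs against 9.99 and 12.3 in NPC_LPCs (adjusted p = 0.161). Vldlr, a lipoprotein receptor, lay at 61.6 and 125 CPM in Hep_LPCs against 110.4 and 47.8 in NPC_LPCs (adjusted p = 0.816).

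Neither the cell division lists nor the respiratory chain held a called gene. Over all genes tested 0.795% were called, so 0 calls in lists of 40 to 50 genes say little about them. No mitosis gene of 40 tested was called by edgeR and 7 were higher by DESeq2, with 18 higher and 0 lower at a nominal p under 0.05 and a median of 0.76. The count of higher members ran from 4 to 25 when any 1 library was left out. NPC_LPCs replicate 2 was above replicate 1 in 39 of these genes, against 6550 of all 12332 genes tested. The Hep_LPCs libraries were unequal too, with a median ratio of replicate 2 to replicate 1 of 0.685, against 1.005 over all genes. Ccnb1, the mitotic cyclin B1, lay at 85.3 and 87.5 CPM in Hep_LPCs against 37.2 and 39.6 in NPC_LPCs (adjusted p = 0.079). In the replication and G1 to S list none of 45 was called by edgeR and 5 were higher by DESeq2. At a nominal p under 0.05 11 higher and 0 lower passed. The median of that list was 0.65, and ran from 0.35 to 0.96 when any 1 library was left out. None of 50 respiratory chain subunits was called by edgeR and 5 were higher by DESeq2, with 11 higher and 0 lower at a nominal p under 0.05 and a median of 0.47. The libraries of 39 subunits did not overlap with Hep_LPCs higher (27.9% of all genes), and 1 was separated by 2-fold. Cyc1, cytochrome c1 of complex III, lay at 85.1 and 125 CPM in Hep_LPCs against 40.2 and 36.7 in NPC_LPCs (adjusted p = 0.078).

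The metabolic lists of liver held few calls, as did all genes tested (0.795%). No tested cytochrome P450 gene (18), phase II or antioxidant enzyme (47), gene of cholesterol and fatty acid synthesis (34) or gene of fatty acid oxidation (39) was called by edgeR. At a nominal p under 0.05 they held 4, 6, 4 and 8 higher and 3, 5, 0 and 2 lower members in that order. DESeq2 called 1, 3, 3 and 7 higher and 2, 4, 0 and 0 lower in the same order. Of 24 liver transporters, Slco3a1, an organic anion carrier, was called lower, at 82.6 and 96.1 CPM in Hep_LPCs against 301 and 324 in NPC_LPCs (log2 difference -1.81 ± 0.24, adjusted p = 0.0472), with 3 higher and 4 lower at a nominal p under 0.05. Gls2, the liver form of glutaminase, lay at 30.5 and 12.7 CPM in Hep_LPCs against 3.13 and 2.97 in NPC_LPCs without a call (adjusted p = 0.0762).

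Of the other cells that a non-parenchymal preparation can hold, macrophage, lymphocyte, endothelial and stellate markers were low, while biliary and mesothelial markers were not. Of 20 macrophage and Kupffer markers 13 had at most 3 reads in every library, and Ptprc, the pan-leukocyte marker, had 3, 1, 2 and 5 reads. Their summed level was 52.9 to 116 CPM in Hep_LPCs and 73.3 to 236 CPM in NPC_LPCs, led by Cd14 at 89.1, 37.2, 153 and 51.4 CPM and Cd68 at 21.7, 13.3, 79.7 and 20.4 CPM. All but 3 of 15 lymphocyte markers had no reads, and 6 of 15 endothelial and 8 of 20 stellate markers had at most 3 reads in every library. Of 10 biliary markers 7 exceeded 10 CPM in some library, with a summed level of 3552 to 5777 CPM in Hep_LPCs and 5472 to 10543 CPM in NPC_LPCs. Spp1, which was not called, made up most of the NPC_LPCs sum, while Krt19 lay higher in Hep_LPCs. Of the 9 tested biliary markers 5 had higher and 4 lower fitted levels in Hep_LPCs. Of 12 mesothelial markers 6 exceeded 10 CPM in some library, with a summed level of 2133 to 2523 CPM in Hep_LPCs and 695 to 983 CPM in NPC_LPCs and with Krt19, which bile duct cells share, as the largest in Hep_LPCs. Msln, mesothelin, lay at 198, 785, 574 and 231 CPM. The part of other cell types in the differences above was not tested.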

How the data were processed

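Polyadenylated RNA was sequenced with a stranded kit in read pairs, per the labels' protocols. The submitters' processing notes list Trimmomatic, HISAT2, Cufflinks, HTSeq and DESeq, and mm10 as the build. Versions, roles and the strand setting were not given in the sources used here. For that reason genes that share over 25% of their exons with another gene, or have a copy of at least 95% identity over 200 bases, are uncertain. The authors deposited whole-number read counts per gene and, beside them, FPKM values scaled by length and depth, per the file headers. The 2 Bec_LPCs tables were not used.

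Low genes were removed with filterByExpr of edgeR, TMM factors scaled the libraries, and glmQLFit (robust) with glmQLFTest was run on the 4 libraries alone (edgeR 4.0.16, limma 3.58.1, DESeq2 1.42.0, R 4.3.3), with Benjamini-Hochberg adjustment over 12332 genes, two-sided. A gene can pass the filter by reads in 1 group alone, so list medians and counts depend in part on the filter. The SE is the log2 difference over the root of F. A gene at 0 reads in a group is given a lower bound, the mean CPM of the other group over the level of 3 reads per library. This covers counting error only and not the spread between libraries. FPKM was used for levels between genes and for alternatives on log2(FPKM + 1) and log2(FPKM + 0.1). The script was tested on simulated data of 12332 genes. It recovered 59 of 100 genes changed 4-fold and 93 of 100 changed 16-fold, with 22 false calls. These false calls were a larger share of the simulated calls than the threshold on the adjusted p aims for. The share of false calls among the genes called in the real libraries may thus exceed that threshold too, and was not estimated.

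The members and the 48 gene lists and 8 marker lists were chosen with earlier results of these data known. Named genes were the 15 largest increases and decreases among called genes of at least 16 CPM in the higher group with libraries that do not overlap, of each list the called members, up to 4 of smallest nominal p and the 2 of highest mean FPKM, and the cell markers. Others are marked as chosen after their values were seen, or were named for the reason given with them. A few genes that are counted in their lists are not reported here by name. Gene positions were taken from GENCODE M21 (mm10), counted from 1.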

Additional observations from a re-analysis of the deposited data

How the results depend on the processing

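Of the 98 called genes, every gene tested kept its direction under all 18 alternatives. Their libraries did not overlap between groups, so a change of direction could hardly occur in them. No named gene reversed where it was called in the fit above or in the alternative. Changes of direction in named genes without a call are not counted here. The number of calls depended on the choice of test and filter. It was 513 of 15835 genes with no filter on low counts, 172 of 9243 with at least 10 CPM in 2 libraries, 1517 with DESeq2, 5 with limma-voom, 165 with limma on log2(FPKM + 1), 0 with that fit and no filter (2820 genes at an unadjusted p under 0.05) and 53 without robust estimation. Leaving out each library in turn gave 0 to 361 calls, of which 91 were shared without NPC_LPCs replicate 1 and 57 without NPC_LPCs replicate 2. With DESeq2 size factors 94 were called, with library size alone 87, without the 50 highest genes 85, with log2(FPKM + 0.1) 142, without X and Y genes 114 and with a 2-fold minimum 98. Under library size alone 48.3% of calls were higher in Hep_LPCs, against 43.9%.

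The replicate numbers of the groups share only a number: the deviations of same-numbered libraries correlated at r = -0.0169. With the replicate number as a block 128 genes were called, 75 of them among the 98. With 2 libraries per group, single calls near the threshold cannot be ranked. At these depths a gene under 0.149 to 0.169 CPM rests on fewer than 3 reads.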

Other observations

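The libraries of one group differed in whole lists beside the interferon genes. Acute phase genes were over 2-fold higher in NPC_LPCs replicate 1 than in NPC_LPCs replicate 2 in 12 of 17 tested members (70.6%), and phase II and antioxidant enzymes in 24 of 47 (51.1%), against 8.04% of all genes tested. Interferon-induced effectors ran the other way, with NPC_LPCs replicate 2 above replicate 1 in 42 of 43. The NPC_LPCs libraries were thus opposed in these lists, each value coming from 1 library. Il33, an alarmin cytokine, lay at 705 and 895 CPM in Hep_LPCs against 404 and 41.5 in NPC_LPCs, and Spp1, osteopontin, at 3026 and 905 CPM in Hep_LPCs against 8944 and 4203 in NPC_LPCs. Neither was called (adjusted p = 0.348 and adjusted p = 0.212).

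Genes with no read in one group and at least 1 CPM in both libraries of the other numbered 13 without reads in NPC_LPCs and 14 without reads in Hep_LPCs. Of these, 2 were called, Cdhr5 and Ddc. The others were listed after their values were seen, and their bounds are for the mean of the group with reads. Among those without reads in NPC_LPCs were Kcnk1, a potassium channel, at 1.72, 5.19, 0 and 0 CPM, at least 21-fold higher (adjusted p = 0.0785), Igfbp2, a binding protein of insulin-like growth factors, at 4.45, 2.14, 0 and 0 CPM, at least 20.0-fold higher (adjusted p = 0.0739), and A1cf, a cofactor of apolipoprotein B messenger editing, at 2.33, 2.87, 0 and 0 CPM, at least 15.8-fold higher (adjusted p = 0.0728). Among those without reads in Hep_LPCs were Ddx60, an antiviral helicase, at 0, 0, 4.88 and 26.5 CPM, at least 92.8-fold lower (adjusted p = 0.0762), and Casp12, a caspase, at 0, 0, 4.28 and 18.4 CPM, at least 67-fold lower (adjusted p = 0.0679). Nphp4, a protein of the ciliary transition zone, lay at 0, 0, 4.5 and 6.09 CPM, at least 31.3-fold lower (adjusted p = 0.0555).

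The other lists are given as counts of members called by edgeR, then at a nominal p under 0.05, higher and lower. Over all genes tested 0.795% were called, and 10.5% were higher and 11.6% lower at that nominal p. Serpins outside the plasma inhibitors held 0 calls of 12, with 1 higher and 4 lower. Matrix proteases and their inhibitors held 0 of 31, with 2 higher and 10 lower. Genes of cilia and polycystic disease held 0 of 42, with 2 higher and 9 lower. YAP and TEAD targets held 0 of 31, with 2 higher and 3 lower. Heat shock genes held 0 of 17, with 4 higher and 0 lower, and the inducible pair Hspa1a and Hspa1b, which are near-identical copies, lay at 17.4, 53, 2.58 and 2.67 CPM and 39.1, 78.9, 12.1 and 10.6 CPM. DESeq2 called 0 higher and 3 lower among the serpins, 1 higher and 7 lower among the matrix proteases and inhibitors, 2 higher and 7 lower among the cilium genes, 2 higher and 2 lower among the YAP targets and 3 higher and 0 lower among the heat shock genes. Complement components held 0 of 14, with 1 higher and 5 lower, and DESeq2 called 1 higher and 3 lower. Biliary epithelial genes held 0 of 22, with 4 higher and 7 lower and by DESeq2 3 higher and 5 lower. The p53 targets held 0 of 22, with 2 higher and 2 lower and by DESeq2 1 higher and 1 lower. Genes of WNT signalling held 0 of 32, with 5 higher and 4 lower and by DESeq2 3 higher and 3 lower. Genes of glycolysis and hypoxia held 0 of 38, with 6 higher and 6 lower and by DESeq2 3 higher and 1 lower. Urea cycle and amino acid enzymes held 0 of 16, with 4 higher and 0 lower and by DESeq2 3 higher and 0 lower. Liver progenitor and fetal liver genes held 0 of 22, with 3 higher and 4 lower and by DESeq2 2 higher and 3 lower. Copines and annexins held 1 call of 16 (Cpne4), with 3 higher and 2 lower at the nominal threshold, galectins 1 of 7 (Lgals2), with 2 higher and 1 lower, ion channels 2 of 24 (Clic5 and Piezo2), with 5 higher and 9 lower, and homeobox patterning genes 1 of 15 (Cdx2), with 2 higher and 1 lower. None of 4 tested Y-linked genes was called by edgeR or DESeq2, with 0 higher and 0 lower at a nominal p under 0.05. These genes were split within Hep_LPCs, where the median ratio of replicate 2 to replicate 1 was 0.000951.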
